A study of Mus musculus with 6 samples.

Results

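Genes of the tight junction were examined in RNA-seq of pancreatic islets of mice, in which the cell type label is beta cell. The set held 9 of the 54532 genes in the deposited table, found by gene symbol: the claudin genes Cldn8, Cldn1, Cldn3, Cldn4, Cldn5, Cldn7 and Cldn12, the occludin gene Ocln and Tjp1, which encodes ZO-1. It was put together because Cldn8 was higher in Bcas2 knockout islets, so that difference is described without a test, and the other 8 genes were added as its relatives and junction partners. The comparison is between 2 groups of 3 libraries. The control group has the genotype label wt, and the Bcas2 cKO group carries a conditional knockout of Bcas2 (label Cko) that the series' design text calls a knockdown. The product of Bcas2 works in pre-mRNA splicing as part of the Prp19 complex, and the series title concerns insulin synthesis and secretion. Which Cre was used, which exons of Bcas2 it removes, and how many mice of which age and sex were taken was not given in the sources used here. The p-values therefore speak only of how these libraries vary, and that variation may be technical.

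Tight junctions lie at the apical end of the border between epithelial cells and close the gap between neighbouring membranes. Claudins are small membrane proteins that form the strands of the junction, and the mix of claudins in a cell sets which ions and solutes pass between cells. Occludin is a further membrane protein of the strands, and ZO-1 is a scaffold that ties the tails of claudins and occludin to actin. Claudin-8 is known mainly from the distal kidney tubule and the large intestine, where it limits passage of ions between cells.

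The libraries held 15170439 to 15594871 reads on genes in control and 16351800 to 16904326 in Bcas2 cKO. Bcas2 itself was 10.3, 15.04 and 11.2 FPKM in control libraries 1, 3 and 4 and 8.76, 8.40 and 9.14 FPKM in Bcas2 cKO libraries 3, 4 and 5 (log2 fold change -0.42, SE 0.13, limma adjusted p 0.083), with no overlap between the groups. FPKM are reads scaled by gene length and by a depth set for each library. The label beta cell was checked against hormone genes: Ins2 was 63980 to 170430 FPKM over the 6 libraries, but the alpha cell hormone gene Gcg was also at 17728 to 26311 FPKM, so the preparations held other islet cells as well. In bulk RNA such as this, more cells of a type and more RNA per cell cannot be told apart.

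Cldn8 (ENSMUSG00000050520, chromosome 16, 88560828 to 88563183, minus strand, GRCm38) was close to absent in control and well expressed in Bcas2 cKO. Control libraries 1, 3 and 4 held 0.187, 0.0629 and 0.202 FPKM, which rest on 7, 2 and 7 reads. Bcas2 cKO libraries 3, 4 and 5 held 20.5, 12.1 and 12.0 FPKM, from 877, 503 and 487 reads. Every Bcas2 cKO library lay far above every control library, and among the Bcas2 cKO libraries number 3 stood above 4 and 5. The means were 0.151 ± 0.0765 and 14.9 ± 4.89 FPKM (SD, n = 3 each), a ratio of 98.6. From the 16 control and 1867 Bcas2 cKO reads in all, each sum divided by the depth that the FPKM of its libraries imply, the ratio was 97.0. On the log2(FPKM + 1) scale the difference was 3.75, the fourth highest among the 13723 tested genes, which were those averaging 1 FPKM or more over the 6 libraries. Cldn8 reached that mean only through its Bcas2 cKO values.

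**Figure D1:**
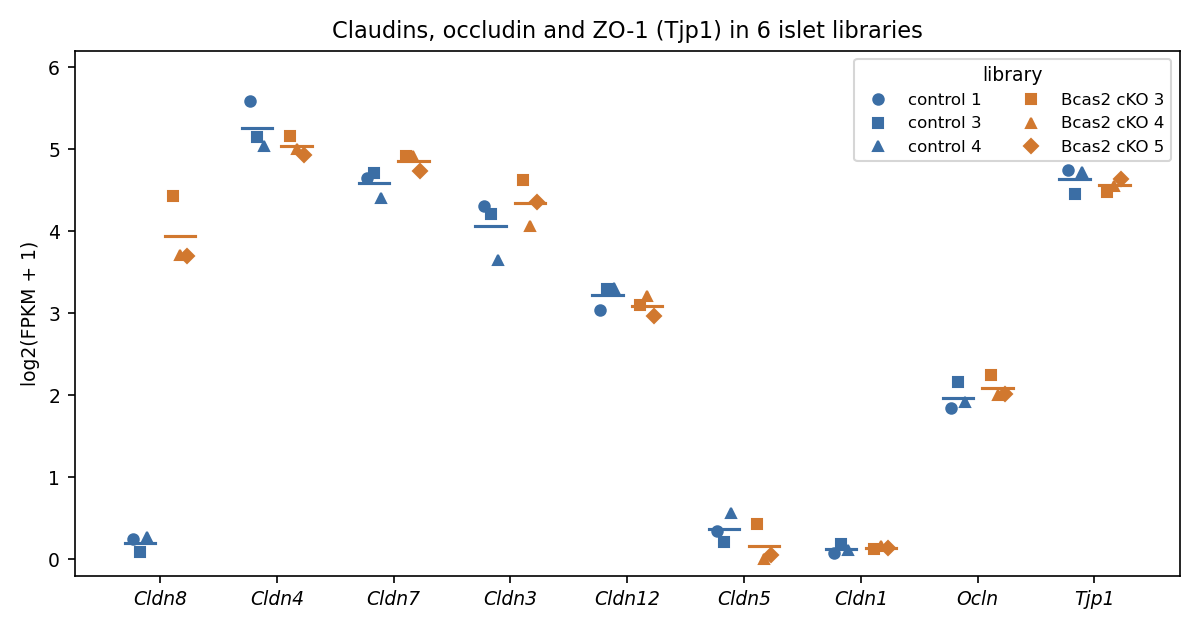
Level of each of the 9 genes as log2(FPKM + 1) on the vertical axis, with 1 point per library, control in blue and Bcas2 cKO in orange, and short lines for the means of 3 libraries. Cldn8 moves from near 0 to the range of the expressed claudins, while the points of Cldn4, Cldn3, Cldn12, Ocln and Tjp1 overlap between the groups.

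The 6 other tested genes of the set had log2 fold changes of at most 0.29 in size. Of the 6 tested genes besides Cldn8, limma called 0 at an adjusted p under 0.05, where 14.5% of all tested genes were called, 6.97% as higher and 7.55% as lower. One of them, Cldn7, had an unadjusted p under 0.05, and Cldn7 was also the 1 gene of the 6 that limma voom called on the recovered reads. Cldn7 was also the 1 of these 6 whose groups did not overlap, beside 38% of all tested genes.

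Cldn4 (ENSMUSG00000047501, chromosome 5, 134945119 to 134946934) encodes the claudin that claudin-8 is known to bring into junctions of kidney collecting duct cells. It was the most abundant claudin transcript of both groups, with 47.2, 34.3 and 31.8 FPKM in control libraries 1, 3 and 4 and 34.9, 31.2 and 29.5 FPKM in Bcas2 cKO libraries 3, 4 and 5. Control library 1 stood above the rest, and the other values ran together. The log2 fold change was -0.22 (95% interval -0.59 to 0.14, limma adjusted p 0.37), so the interval holds no change as well as a fall of 0.59 on the log2 scale. Without control library 1 it was -0.06.

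Cldn7 (ENSMUSG00000018569, chromosome 11, 69964779 to 69967885) encodes a claudin found widely in simple epithelia, along the lateral membrane as well as in the junction. Its values were 24.02, 25.1 and 20.1 FPKM in control, against 29.1, 29.2 and 25.7 FPKM in Bcas2 cKO. The lowest Bcas2 cKO library was just above the highest control library. The log2 fold change of 0.27 (SE 0.11, 95% interval 0.02 to 0.52) did not pass the threshold (limma adjusted p 0.13). It passed with voom on the recovered reads (log2 fold change 0.43, adjusted p 0.042) and with libraries scaled to their reads outside the acinar markers (0.44, adjusted p 0.040). Both of these fits scale to reads on genes, the second leaving out the acinar markers. They also moved the median over all genes, which was -0.03 on the log2 scale, to 0.11 and 0.12. With libraries scaled to their reads outside the hormone genes, Cldn7 was at 0.26 (limma adjusted p 0.16) and the median stayed at -0.03.

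Cldn3 (ENSMUSG00000070473, chromosome 5, 134986214 to 134987472), like Cldn4 a barrier-forming claudin and known with it as a receptor of Clostridium perfringens enterotoxin, was 18.9, 17.5 and 11.6 FPKM in control, against 23.7, 15.7 and 19.4 FPKM in Bcas2 cKO. The spread within each group was as wide as the distance between them (log2 fold change 0.29, 95% interval -0.21 to 0.78, limma adjusted p 0.39). Cldn12 (ENSMUSG00000046798, chromosome 5, 5489537 to 5514958), an atypical claudin linked to calcium permeability of the gut, was 7.22, 8.85 and 8.94 FPKM in control, against 7.60, 8.22 and 6.82 FPKM in Bcas2 cKO. Its groups overlapped as well (-0.13, 95% interval -0.38 to 0.13, limma adjusted p 0.46). The sign of this value turned with voom and with libraries scaled to reads outside the acinar markers. It did not turn with libraries scaled to reads outside the hormone genes (-0.13).

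The last 2 claudins of the set were at trace levels in all 6 libraries and were not tested. Cldn1 (ENSMUSG00000022512, chromosome 16, 26356642 to 26371841), the main claudin of the epidermal barrier, had 4, 9 and 6 reads in control and 8, 10 and 8 in Bcas2 cKO, or 0.0521 to 0.138 FPKM. Cldn5 (ENSMUSG00000041378, chromosome 16, 18776847 to 18778262), the claudin of endothelial junctions and of the blood-brain barrier, had 6, 3 and 10 reads in control and 9, 0 and 1 in Bcas2 cKO. The level that 3 reads would give for Cldn5 was 0.117 to 0.157 FPKM, so differences below that are not detectable at this depth. Endothelial markers were present in the same libraries: Pecam1 was 5.73 to 8.49 FPKM and Cdh5 4.86 to 6.69 FPKM. Of the 10 tested endothelial markers limma called 0, beside 14.5% of all tested genes, none had an unadjusted p under 0.05 and voom called 0. Vwf, the listed marker too low to be tested, had 65, 31 and 42 reads in control and 176, 180 and 166 in Bcas2 cKO.

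Neither occludin nor ZO-1 transcripts separated the groups. Ocln (ENSMUSG00000021638, chromosome 13, 100496507 to 100552718) was 2.58, 3.46 and 2.77 FPKM in control libraries and 3.75, 3.01 and 3.03 FPKM in Bcas2 cKO libraries (log2 fold change 0.12, 95% interval -0.17 to 0.40, limma adjusted p 0.55). Tjp1 (ENSMUSG00000030516, chromosome 7, 65296165 to 65527781) was 25.8, 20.9 and 25.3 FPKM in control, against 21.4, 22.5 and 23.9 FPKM in Bcas2 cKO, a difference of -0.08 (95% interval -0.32 to 0.16, limma adjusted p 0.64). Its sign turned with voom and with libraries scaled to reads outside the acinar markers, but not with those scaled to reads outside the hormone genes (-0.09). The interval of Tjp1 was the narrowest among the 6 tested genes besides Cldn8.

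Levels per gene length could be ordered within each group. In control, Cldn4 was highest with a mean of 37.8 FPKM and did not overlap the next genes, Tjp1 (23.99) and Cldn7 (23.1), which overlapped each other. Cldn3 (16.0), Cldn12 (8.33) and Ocln (2.94) followed without overlap, and at the bottom Cldn8 (0.151) overlapped both Cldn5 (0.302) and Cldn1 (0.0914). In Bcas2 cKO the order was Cldn4 (31.8), Cldn7 (28.0), Tjp1 (22.6), Cldn3 (19.6), Cldn8 (14.9), Cldn12 (7.55), Ocln (3.27), Cldn5 (0.130) and Cldn1 (0.101). There Tjp1 overlapped Cldn3 and Cldn3 overlapped Cldn8. Cldn8 lay above Cldn12 in all 3 libraries, and Cldn5 overlapped Cldn1.

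Summed over the 33 genes named as claudins with a number, FPKM came to 112, 107 and 90.9 in control libraries 1, 3 and 4 and to 148, 137 and 116 in Bcas2 cKO libraries 3, 4 and 5. Cldn8 made up 0.167, 0.0585 and 0.223% of that sum in control and 13.9, 8.88 and 10.4% in Bcas2 cKO. Its rank among the claudin genes was 13 to 16 in control libraries and 4 or 5 in those of Bcas2 cKO. Without Cldn8 the sums were 90.7 to 112 FPKM in control, against 104 to 127 FPKM in Bcas2 cKO, and these ranges overlapped. Cldn4 held 32.0 to 42.2% of the sum in control and 22.8 to 25.5% in Bcas2 cKO.

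**Figure D2:**
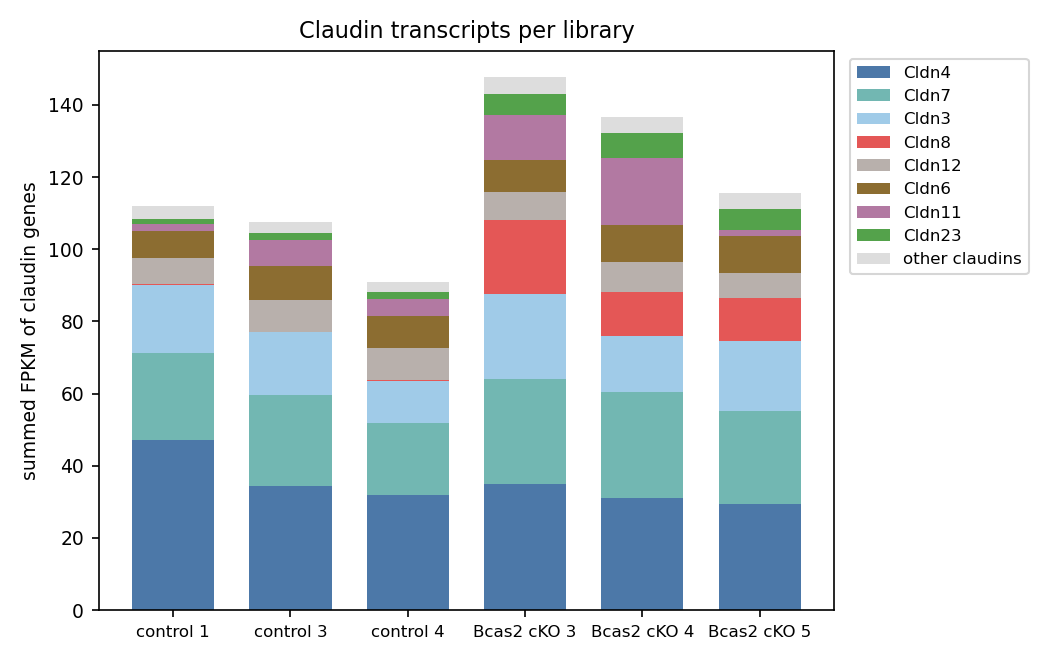
Summed FPKM of all claudin genes in each library, stacked by gene, with control libraries 1, 3 and 4 on the left and Bcas2 cKO libraries 3, 4 and 5 on the right. The Cldn8 segment is hardly visible in control and is 13.9, 8.88 and 10.4% of the bar in Bcas2 cKO, while Cldn4, Cldn7 and Cldn3 fill most of every bar.

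The 9 genes differ in structure. In GENCODE M21, whose coordinates matched the table for all 9 genes, Cldn8, Cldn3, Cldn4 and Cldn5 each have 1 transcript with 1 exon. Cldn12 has its coding sequence in 1 exon but 4 or 5 exons in its coding transcripts. Cldn1 has 4 exons, Cldn7 3 to 5, Ocln 4 to 9 and Tjp1 5 to 28. The genes without an intron thus include the one that was higher, Cldn8, and Cldn3 and Cldn4, which were not called. Cldn4 and Cldn3 lie 39.3 kb apart on chromosome 5, on opposite strands. No gene of the table overlaps Cldn8, Cldn1, Cldn4, Cldn5, Cldn7, Cldn12 or Ocln. The antisense transcript Wbscr25 overlaps Cldn3 and was at most 0.483 FPKM, and 3 genes overlapping Tjp1 were at most 0.791 FPKM.

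Around Cldn8, the 27 protein-coding genes within 500 kb were nearly silent, and none reached the mean of 1 FPKM needed for the test. They are 25 genes on the side of higher coordinates, among them Krtap genes for hair keratin-associated proteins, and on the other side Cldn17 and the glutamate receptor gene Grik1. Of the 27, 19 had 0 reads in every library, and 7 had reads in Bcas2 cKO libraries and none in control. Of these 7, Krtap13-1, which lies 165.7 kb from Cldn8, had 38, 16 and 10 reads in Bcas2 cKO libraries 3, 4 and 5 and 0 reads in each control library. Its Bcas2 cKO mean of 1.59 ± 1.06 FPKM (SD, n = 3) was at least 5.82-fold higher than the level that 3 reads in each control library would give on average. The other 6 had at most 6 reads in any library. How many genes of the whole table had reads only in Bcas2 cKO was not counted. Every Bcas2 cKO library also held more reads on genes than every control library. Cldn17, the claudin gene next to Cldn8, had 0, 0 and 0 reads in control and 1, 0 and 3 in Bcas2 cKO.

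The 5 named protein-coding genes whose values over the 6 libraries were most like those of Cldn8 were Enpp2, Crispld2, Gbp8, Aida and Tph1. Pearson's r of log2(FPKM + 1) with Cldn8 was 0.998 to 0.999, out of 11114 genes compared. The groups of all 5 genes were separate, as were those of Cldn8, so the gap between the groups enters every coefficient, and r is given as a description. Enpp2, which encodes the lysophospholipase autotaxin, was 20.04, 17.2 and 19.4 FPKM in control, against 101, 78.9 and 72.2 FPKM in Bcas2 cKO. Gbp8, a guanylate-binding protein gene, was 0.861, 0.581 and 0.534 FPKM in control, against 18.7, 11.3 and 12.1 FPKM in Bcas2 cKO. Crispld2 ran from 0.512 to 0.594 FPKM in control, against 2.91 to 4.18 FPKM in Bcas2 cKO, and Aida from 6.96 to 7.33 and from 10.9 to 11.6 FPKM. Tph1, which starts serotonin synthesis, had 0 reads in control and 1614, 768 and 961 reads in Bcas2 cKO. In all 5, as in Cldn8, Bcas2 cKO library 3 held the highest value, which the choice by likeness to Cldn8 favours.

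Beyond the 9 genes, a wider list of 110 genes of cell junctions and claudin regulation was used, of which 109 were in the table and 78 were tested. Of these 78, 9 rose and 7 fell (20.5% called, against 14.5% of all tested genes). The median log2 fold change of the list was -0.02, beside -0.03 for all tested genes. With libraries scaled to reads outside the acinar markers 15 rose and 3 fell, with voom 14 and 4, and scaled to reads outside the hormone genes 8 and 7. Leaving out control library 4 gave 9 calls, and leaving out Bcas2 cKO libraries 3, 4 or 5 gave 8, 8 and 9. The calls of Cldn23, Tjp3, Nectin3, Cdh2, Gjd2, Elf3, Esrp2 and Prss8 held without each library in turn. Those of Amotl1, Pkp4 and Foxo1, which fell, were lost with voom and with libraries scaled to reads outside the acinar markers. With libraries scaled to reads outside the hormone genes these calls held, and that of Cgn was lost.

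Among the other claudins, 4 of 17 were tested and 1 rose (25% called, beside 14.5% of all tested genes), with a median of 0.66. Cldn23 (ENSMUSG00000055976, chromosome 8, 35824712 to 35826559), a claudin of gut and other epithelia, was 1.23, 2.004 and 1.95 FPKM in control, against 5.73, 6.95 and 5.80 FPKM in Bcas2 cKO. The groups lay far apart relative to their spread (log2 fold change 1.40, SE 0.14, limma adjusted p 0.0026). Cldn11, the claudin of myelin and of Sertoli cells, was at 1.96, 7.29 and 4.70 FPKM in control, against 12.5, 18.7 and 1.49 FPKM in Bcas2 cKO, and was not called (limma adjusted p 0.55).

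Of 30 tested other tight junction genes, 2 rose and 1 fell (10% called, beside 14.5% of all tested genes), with a median of -0.03. Tjp3, which encodes the scaffold ZO-3, rose from 5.79 ± 0.630 to 11.2 ± 0.905 FPKM (SD, n = 3 each), a log2 fold change of 0.84 with an SE of 0.10 (limma adjusted p 0.0040). Cgn, which encodes the scaffold cingulin, rose by 0.33 on the log2 scale (limma adjusted p 0.039). Amotl1, an angiomotin family gene, fell by 0.42 (limma adjusted p 0.026). The calls of Cgn and Amotl1 were lost in 5 and 4 of the 6 leave-one-out fits.

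Of 13 tested adherens junction genes 2 fell and 0 rose (15.4% called, near the 14.5% of all tested genes), with a median of -0.19. Nectin3, an adhesion receptor of these junctions, fell from 6.68 ± 0.274 to 4.07 ± 0.141 FPKM, a log2 fold change of -0.60 with an SE of 0.07 (limma adjusted p 0.0044). Cdh2, which encodes N-cadherin, fell from 16.99 ± 0.507 to 11.1 ± 0.508 FPKM, or by 0.58 on the log2 scale (limma adjusted p 0.0047). Cdh1, for E-cadherin, was 83.5, 66.7 and 67.5 FPKM in control, against 57.5, 49.5 and 53.8 FPKM in Bcas2 cKO and did not pass the test (-0.42, limma adjusted p 0.052).

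Gjd2, the connexin gene of the gap junctions that couple beta cells electrically, was 132, 134 and 124 FPKM in control, against 68.9, 74.2 and 85.7 FPKM in Bcas2 cKO. It fell by 0.77 on the log2 scale (SE 0.10, limma adjusted p 0.0065). Gjd2 was the 1 gene called of 3 tested for gap junctions (33.3%, beside 14.5% of all tested genes), and the gap junction median was -0.29. Beta cell markers took 20.5 to 28.8% of reads on genes in control and 14.6 to 15.99% in Bcas2 cKO, and 3 of 10 fell, beside 7.55% of all tested genes. Most reads of that share were of Ins2 and Ins1. Of the 10 markers 9 were lower in Bcas2 cKO, with Pdx1, Nkx6-1 and G6pc2 overlapping between the groups. Mafa was higher without overlap (228 ± 37.1 and 349 ± 84.1 FPKM, not called). The part of beta cells in the value of Gjd2 was not tested. Of 8 tested desmosome genes Pkp4, a plakophilin, fell from 27.6 ± 0.860 to 21.7 ± 2.07 FPKM (limma adjusted p 0.048), a call that was lost without any of the 6 libraries in turn. It was the 1 desmosome gene called (12.5%, beside 14.5% of all tested genes), and the desmosome median was 0.02.

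Among 20 tested genes on the list of claudin regulators and epithelial factors, 6 rose and 2 fell (40.0% called beside 14.5% of all tested genes, median 0.13). The list was chosen with earlier results of these data known. The list's name is broad, and those that rose include transcription and splicing factors of epithelial cells. Elf3, an epithelial ETS factor, rose from 7.21 ± 1.75 to 14.6 ± 0.835 FPKM (log2 fold change 0.95, limma adjusted p 0.013). Esrp2, an epithelial splicing regulator, rose from 3.71 ± 0.805 to 7.70 ± 1.12 FPKM (0.89, limma adjusted p 0.012). Its paralog Esrp1 was 20.8 ± 1.96 and 16.4 ± 1.77 FPKM and was not called. Prss8, the membrane protease prostasin, rose from 2.67 ± 0.227 to 5.68 ± 1.16 FPKM (0.85, limma adjusted p 0.011).

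Sgk1, a kinase that aldosterone induces in kidney tubules, rose by 0.84 (limma adjusted p 0.037), a call lost in 5 of the 6 leave-one-out fits. The other 4 called genes of the list were chosen after their values were seen: Grhl1 (0.58) and St14 (0.48), the latter encoding the protease matriptase, rose, and the mineralocorticoid receptor gene Nr3c2 (-0.54) and Foxo1 (-0.31) fell. Their calls were each lost in 4 or 5 of the 6 fits. Klhl3 and Wnk4, whose products act on claudins and salt transport in the distal tubule, were at log2 fold changes of -0.09 and 0.17 and were not called.

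**Figure D3:**
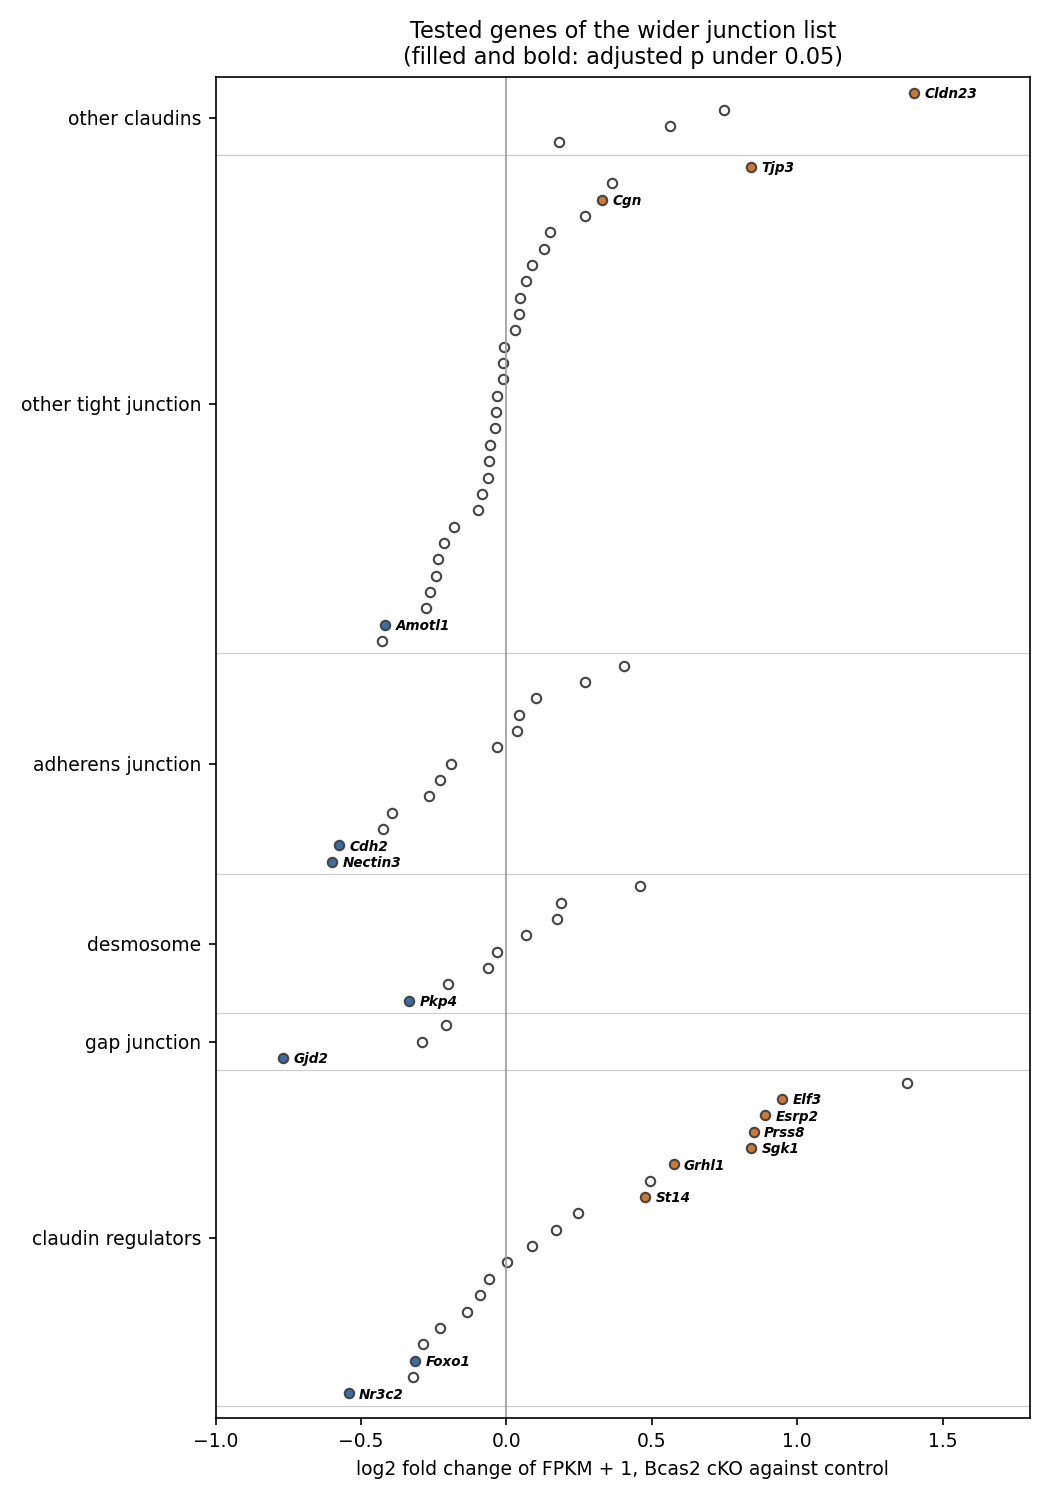
Log2 fold change of FPKM + 1 between Bcas2 cKO and control on the horizontal axis for the 78 tested genes of the wider list, 1 point per gene, grouped by part of the list. Filled points, labelled by gene, passed the test, with 9 to the right of 0, led by Cldn23 at 1.40, and 7 to the left, led by Gjd2 at -0.77.

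Transcripts of other cells also moved with the groups. Reads of 19 acinar markers, from the exocrine tissue around the islets, took 1.27, 0.583 and 0.503% of reads on genes in control libraries 1, 3 and 4 and 1.67, 2.23 and 4.75% in Bcas2 cKO libraries 3, 4 and 5, and 8 of the 18 tested rose (44.4%, beside 6.97% of all tested genes). All 18 were higher in Bcas2 cKO with no overlap between the groups, beside 16.8% of all tested genes. All 18 also had an unadjusted p under 0.05 and were called by voom. Of all 13723 tested genes, voom called 1744 as higher. Both the acinar share and Cldn8 were thus higher in every Bcas2 cKO library than in every control library. Within Bcas2 cKO, library 3 had the lowest acinar share and the highest Cldn8, and libraries 4 and 5 were close in Cldn8, with 503 and 487 reads. The part of acinar cells in the value of Cldn8 was not tested.

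**Figure D4:**
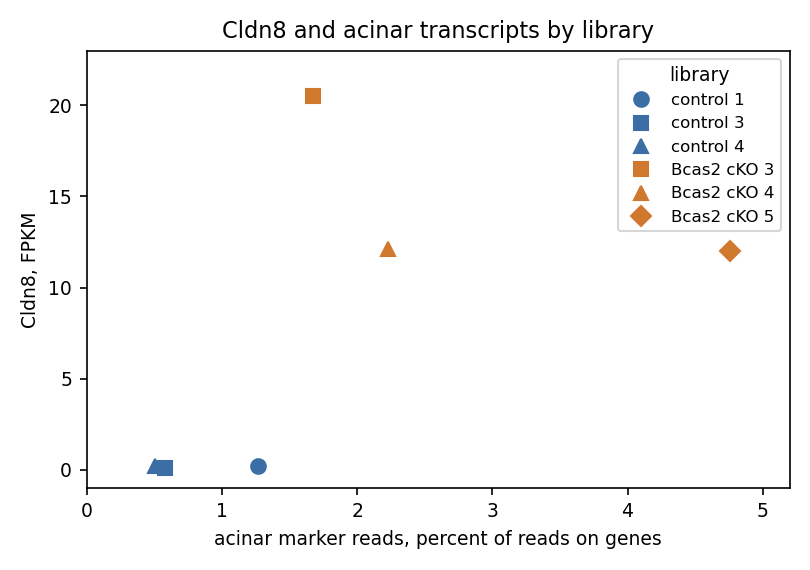
Cldn8 in FPKM on the vertical axis against the percent of reads on genes that fell on 19 acinar markers on the horizontal axis, 1 point per library. The 3 control libraries lie near 0 FPKM, and among the Bcas2 cKO libraries the one with the lowest acinar share, 1.67%, has the highest Cldn8, 20.5 FPKM.

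Summed FPKM of 14 duct cell markers were 287 to 331 in control, against 542 to 676 in Bcas2 cKO. Of the 11 tested, 2 rose (18.2%, beside 6.97% of all tested genes) and 0 fell. These were the keratin genes Krt8, at 83.6 ± 19.9 FPKM in control, against 289 ± 69.7 FPKM in Bcas2 cKO, and Krt18, at 73.1 ± 6.69 and 161 ± 20.6 FPKM. Without these 2 keratin genes, a sum added after the values were seen, the other 12 markers came to 129 to 158 FPKM in control, against 141 to 174 FPKM in Bcas2 cKO, and the groups overlapped. Among defining duct genes, Krt19 was 0.919 to 1.05 FPKM in control libraries and 1.10 to 2.05 FPKM in Bcas2 cKO libraries. Sox9 was 0.198 to 0.732 and 0.756 to 0.906 FPKM, and Epcam, also an islet gene, overlapped between the groups. At 57.1 to 68.7 FPKM, Epcam outweighs low genes in the sum of 12 markers, which therefore cannot show their changes. Cftr, too low to be tested, had 6, 1 and 0 reads in control and 52, 31 and 31 in Bcas2 cKO. Krt7 went the other way without overlap, at 25.3 to 31.03 FPKM in control, against 20.4 to 23.2 FPKM in Bcas2 cKO. It was not called (limma adjusted p 0.058). Of the 11 tested duct markers, 8 were higher and 3 lower in Bcas2 cKO. Of 8 tested macrophage and lymphocyte markers 5 rose (62.5%, beside 6.97% of all tested genes) and 0 fell, and their summed FPKM ran from 86.8 to 111 and from 107 to 128. Of 8 tested alpha, delta and PP cell markers 2 rose (25%) and 0 fell, and of 4 tested Schwann cell and neuron markers 1 rose and 2 fell (75% called, beside 14.5% of all tested genes). Limma called 0 of 6 stellate cell and fibroblast markers (1 at an unadjusted p under 0.05, 1 by voom) and 0 of 1 mesothelium marker (0 and 0). The part of duct and immune cells in the values of Cldn8, Cldn23 and the epithelial factors was not tested.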

How the data were processed

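Per the labels' protocols, Trizol was used for RNA and a SMARTer mRNA kit for the libraries. The build was GRCm38 (mm10), per the submitters' processing notes. The aligner, counting program and strandedness were not given in the sources used here. The authors deposited FPKM for 54532 genes, 1 column per library. The knockout columns carry the numbers 3, 4 and 5 but the sample labels 1, 3 and 4, so column 5 was used as a member of its group with no sample of its own.

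Reads per gene were recovered from the product of FPKM and gene length, which came out whole, within 0.01 of a read, for 100% of values above 0. Median-of-ratios factors of the deposited FPKM were 1 in every library. The depth inside the FPKM ran from 0.890 (control 3) to 1.11 (Bcas2 cKO 3) times the reads on genes. It was thus not the reads on genes alone. With factors of 1, the deposited FPKM were already level by median of ratios. The scalings to reads on genes, voom among them, replaced that depth.

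The 13723 genes averaging 1 FPKM or more were tested on log2(FPKM + 1), which understates changes of low genes, with limma 3.58.1 in R 4.3.3 (lmFit, eBayes with trend) and a Benjamini-Hochberg threshold of 0.05. With 3 against 3 libraries an exact permutation test cannot go below p = 0.1 and was not used. Every pair of libraries differed beyond sampling noise (chi-square per degree of freedom at least 13.6 over genes with at least 50 reads). The fit was tested on simulated data. Python 3.11.15 with pandas 2.3.3 and matplotlib 3.10.9 was used for summaries and plots.

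The 9 genes, the wider list and the marker lists were chosen with earlier results of these data known. In each part of the wider list up to 4 called genes with the largest change are named, or the 2 highest where none was called. Neighbours are protein-coding genes within 500 kb, and likeness is Pearson's r over the 6 libraries. A few further genes are named beside these as paralogs, partners or markers (Cldn11, Cdh1, Esrp1, Klhl3 and Wnk4 among them), chosen after their values were seen.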

Additional observations from a re-analysis of the deposited data

How the results depend on the processing

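Of the 12 other settings, median-of-ratios scaling, with factors of 1 in every library, repeats the main fit. Cldn8 was higher in Bcas2 cKO under all 12 and without each library. This is a description, since the set was chosen for that rise. With 7, 2 and 7 reads in control and 877, 503 and 487 in Bcas2 cKO, Cldn8 had little room to turn. On the log2(FPKM + 1) scale its difference was 3.57 to 3.89 under the other settings and 3.51 to 3.87 without a library. The size depends on the pseudocount: it was 5.91 with 0.1 FPKM and 6.72 with voom, and the control level rests on 16 reads. The count of called genes, 1993, was 1144 with no filter beyond a mean above 0 and ran from 878 to 1950 when a library was left out (1318 without control 3, 888 without control 4, and 878, 921 and 928 without Bcas2 cKO 3, 4 and 5). The 16 calls of the wider junction list became 9 with no filter and 8 to 17 without a library. With libraries scaled to reads outside the acinar markers 1712 genes rose and 408 fell, and with voom 1744 and 551, against 957 and 1036. Under these scalings the change of Cldn12 turned to 0.030 and 0.0062 and that of Tjp1 to 0.087 and 0.064, both uncalled. With libraries scaled to reads outside the hormone genes 916 rose and 1012 fell, and Cldn12 and Tjp1 stayed at -0.13 and -0.09. The 16 called junction genes kept their direction under every setting in which they were tested. By column name both groups hold libraries numbered 3 and 4, while the sample labels of both groups carry 1, 3 and 4. The deviations of libraries with the same column number correlated at -0.149 and 0.045, so these numbers were not taken as pairs. Whether the labels mark pairs could not be checked, since column 5 has no sample of its own. With a replicate block on these numbers, which leaves 1 residual degree of freedom, 538 genes and 6 junction genes were called.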
